A study of Mus musculus with 22 samples.

Results

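Coding exon tiles were the 16767 windows of 100 bp, of 114430 analysed on chromosomes 1 to 19, whose midpoint lay in the protein-coding part of a RefSeq exon of the GRCm38 mouse genome. Tiles from 1000 bp upstream to 100 bp downstream of any transcription start site were left out as promoters, and each tile needed at least 2 CpGs with at least 10 reads in at least 5 samples per condition. They made up 14.7% of the analysed tiles and lay in 9995 coding exons of 6923 genes. Of them, 5239 were in the first coding exon of their transcript, 7029 in an internal one, 2729 in the last one and 1770 in transcripts with a single coding exon. The data were rapid reduced representation bisulfite sequencing (rRRBS) libraries, in which DNA is cut at CCGG sites with MspI and unmethylated cytosines are converted with bisulfite, so that DNA methylation is read as the percent of reads with an unconverted cytosine.

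The forebrains came from wild-type C57BL/6 embryos at embryonic day 10.5 (E10.5), with 1 embryo per library. The 6 control embryos came from females given saline, and the 16 EtOH-exposed embryos from females given 2 subcutaneous injections of ethanol at 2.5 g/kg, 2 h apart, at E2.5. The embryos came from 3 control and 6 EtOH-exposed litters, and the labels do not say which embryos shared a litter or a sex, so the tests below treated embryos as independent. In a whole forebrain, a lower level in the same cells and a different mixture of cells cannot be told apart, and the tissue label could not be checked against marker genes, since no RNA was measured.

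In mammals, methylation is found mainly at CpGs. CpG-rich stretches around transcription start sites, called CpG islands, are usually unmethylated, whereas the bodies of transcribed genes are usually methylated, in part because the methyltransferase DNMT3B binds a histone mark that is laid down during transcription. Methylated cytosines mutate to thymine more easily than unmethylated ones, so that CpGs have been lost over evolution from most methylated sequence, while coding exons keep some of them because codons such as those for arginine need them.

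The sequences of 12 tiles show the features by which coding exon tiles are described here. They are the coding strand of the GRCm38 reference, read 5′ to 3′, with each CpG that lies wholly inside the tile in capitals. In the first exon tile of Tmem41a, 1 of the 12 CpGs crosses the edge of the tile and is not marked. The tiles of Plekhh2, Cldn12, Skap1, Zbtb22 and Sik3 had the largest called decreases, and that of Cacnb1 the largest called increase, between conditions. Those of Tmem41a and Dsp set a first against a last exon of the same transcript, and those of Speg and Jag1 are a CpG-dense tile that was highly methylated and a CpG-poor tile that was not.
Plekhh2, internal coding exon 10 of 29, chr17:84571701-84571800, plus strand: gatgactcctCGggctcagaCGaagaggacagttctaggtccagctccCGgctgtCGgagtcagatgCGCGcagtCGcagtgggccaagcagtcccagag
Cldn12, only coding exon, chr5:5507701-5507800, minus strand: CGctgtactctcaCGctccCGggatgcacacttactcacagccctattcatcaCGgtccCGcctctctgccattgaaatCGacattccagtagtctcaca
Skap1, internal coding exon 11 of 12, chr11:96731101-96731200, plus strand: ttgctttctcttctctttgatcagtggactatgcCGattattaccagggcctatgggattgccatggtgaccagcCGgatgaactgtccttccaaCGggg
Zbtb22, only coding exon, chr17:33916901-33917000, plus strand: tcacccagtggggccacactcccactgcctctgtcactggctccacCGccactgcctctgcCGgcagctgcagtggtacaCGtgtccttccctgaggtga
Sik3, internal coding exon 16 of 24, chr9:46207901-46208000, plus strand: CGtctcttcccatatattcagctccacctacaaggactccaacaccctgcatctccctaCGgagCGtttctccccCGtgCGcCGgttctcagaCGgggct
Cacnb1, last coding exon 14 of 14, chr11:98003201-98003300, minus strand: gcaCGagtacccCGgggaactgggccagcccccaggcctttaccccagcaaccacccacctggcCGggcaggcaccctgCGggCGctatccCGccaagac
Tmem41a, first coding exon 1 of 5, chr16:21947401-21947500, minus strand: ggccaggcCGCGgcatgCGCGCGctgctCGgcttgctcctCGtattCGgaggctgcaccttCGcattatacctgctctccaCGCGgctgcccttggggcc
Tmem41a, last coding exon 5 of 5, chr16:21934901-21935000, minus strand: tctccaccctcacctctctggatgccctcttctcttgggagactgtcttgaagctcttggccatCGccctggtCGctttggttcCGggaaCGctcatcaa
Dsp, first coding exon 1 of 24, chr13:38151601-38151700, plus strand: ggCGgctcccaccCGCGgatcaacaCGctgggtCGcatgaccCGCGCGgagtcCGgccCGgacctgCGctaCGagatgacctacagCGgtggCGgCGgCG
Dsp, last coding exon 24 of 24, chr13:38196401-38196500, plus strand: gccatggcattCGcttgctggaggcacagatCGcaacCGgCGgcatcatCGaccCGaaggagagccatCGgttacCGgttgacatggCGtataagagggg
Speg, internal coding exon 37 of 41, chr1:75429101-75429200, plus strand: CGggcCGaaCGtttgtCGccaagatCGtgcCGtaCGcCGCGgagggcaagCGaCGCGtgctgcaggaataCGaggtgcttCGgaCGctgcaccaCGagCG
Jag1, internal coding exon 2 of 26, chr2:137115601-137115700, minus strand: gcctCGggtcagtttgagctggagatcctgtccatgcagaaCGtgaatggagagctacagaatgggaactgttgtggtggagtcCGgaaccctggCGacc

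The level of a tile in controls followed the rank of its exon. The median over tiles, each taken as the mean of the control embryos, was 1.15% in first, 90.7% in internal, 81.1% in last and 1.90% in single coding exons. Under 10% methylation were 84.0% of first exon tiles, against 16.02% of internal, 34.7% of last and 61.4% of single exon tiles. At 80% or more were 9.93% of first, 70.6% of internal, 50.5% of last and 26.2% of single exon tiles. Levels between these bounds were the exception in each class, from 6.07% of first to 14.8% of last exon tiles. For comparison, the median was 1.05% in promoter tiles, 1.29% in noncoding exon tiles, 78.5% in intron tiles and 90.4% in intergenic tiles.

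**Figure D1:**
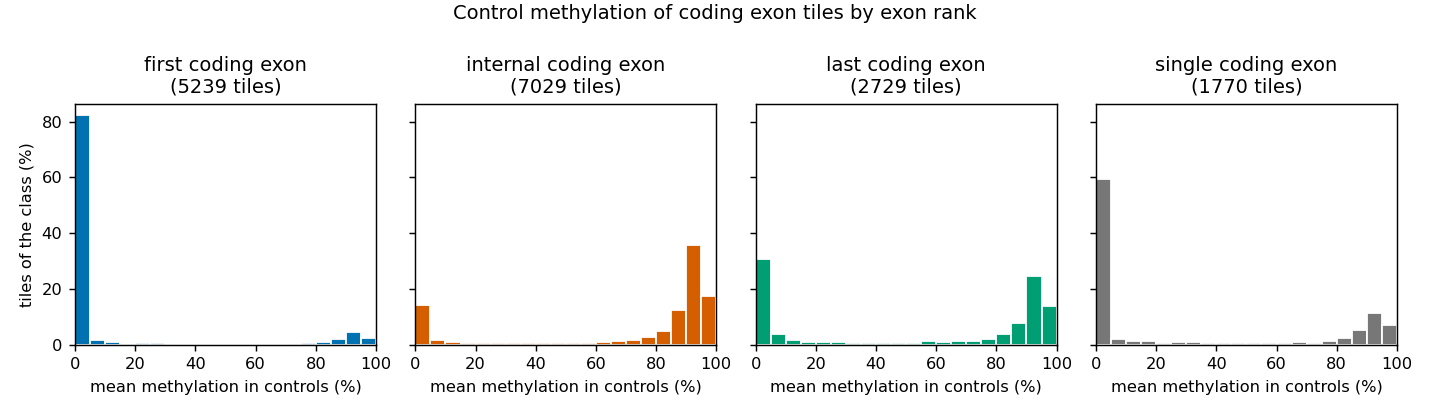
Each panel gives the tiles of 1 exon class by their mean methylation in the control embryos (x axis, percent, in bins of 5 points), as a percent of the tiles of the class (y axis). First and single exon tiles pile up near 0, internal exon tiles above 80%, and last exon tiles at both ends.

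The order held in every control embryo. Averaged over the 6032 coding exon tiles that were measured in all 22 samples, first exon tiles (2420) were at 7.98% ± 0.387 (SD, n = 6 embryos), internal exon tiles (1899) at 59.5% ± 0.448, last exon tiles (955) at 39.8% ± 0.297 and single exon tiles (758) at 20.05% ± 0.467. The internal minus first exon difference was 50.9 points in the lowest and 52.1 points in the highest control embryo, with a mean of 51.5 (exact sign-flip permutation test, two-sided, p = 0.03125, the smallest that 6 embryos allow). That test is of stability over embryos, not over tiles. The tiles measured in every library were more often CpG-rich than the others, since 2922 of the 6032 had 9 or more CpGs, against 5748 of all 16767.

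The level also followed the number of CpGs in the tile. The median control level was 90.4% in the 2576 tiles with 2 to 3 CpGs, 91.1% in the 4233 with 4 to 5, 63.3% in the 4210 with 6 to 8 and 1.13% in the 5748 with 9 or more. The CpG number at which the median dropped differed between exon classes. In first exons it went from 69.8% at 4 CpGs to 23.8% at 5 and 1.68% at 6. In single exons it went from 87.8% at 5 CpGs to 53.4% at 6 and 3.93% at 7. In last exons the median was still 86.7% at 7 CpGs and 21.8% at 8, and in internal exons 86.2% at 8 and 15.1% at 9. At 6 to 8 CpGs, the exon classes thus differed most, with medians of 1.304% in first, 3.31% in single, 87.1% in last and 91.5% in internal exons. From 10 CpGs on, the median was under 3% in each class.

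**Figure D2:**
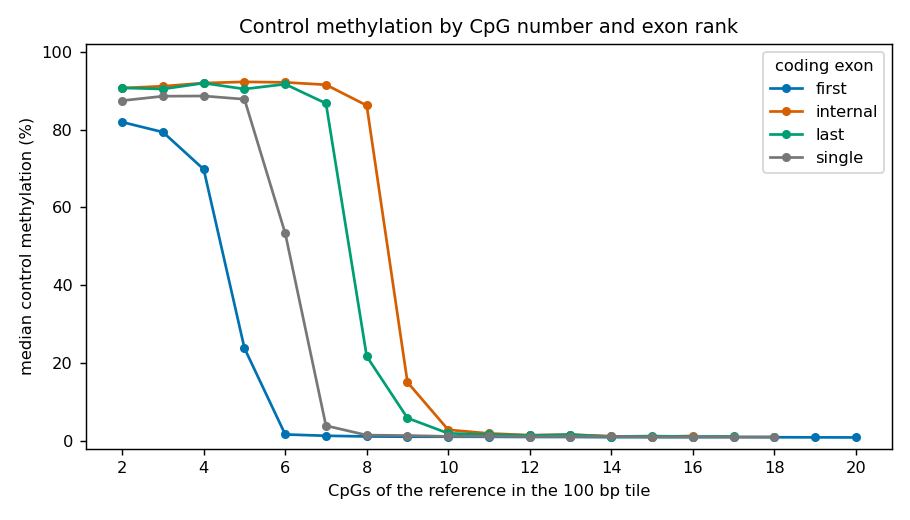
The median control methylation of coding exon tiles (y axis, percent) is plotted against the number of reference CpGs in the 100 bp tile (x axis) for each exon class, where at least 20 tiles had that number. Each class steps from near 90% or 80% to near 1%, and the step comes at 4 to 6 CpGs in first exons and at 8 to 10 CpGs in internal exons.

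The distance from the transcription start moved with the same difference. The median distance of the tile midpoint was 380 bp in first, 18031 bp in internal, 12494 bp in last and 1110 bp in single exons. Among first exon tiles with 2 to 5 CpGs, the median was 1.92% up to 250 bp from the start of the transcript, 3.51% at 500 to 1000 bp, 43.6% at 1 to 2 kb, 89.6% at 2 to 5 kb and 93.2% beyond 20 kb. Internal exon tiles of the same CpG number gave 2.11% at 250 to 500 bp, 25.6% at 500 to 1000 bp, 86.4% at 1 to 2 kb and 92.3% beyond 20 kb. Beyond 2 kb, the exon classes with 2 to 5 CpGs lay between 84.8% and 93.2%, so that the classes were close to each other there. Tiles with 6 or more CpGs were near 1% up to 1 kb in each class, and at 2 to 5 kb they were at 1.88% in first, 1.44% in last and 12.3% in internal exons. At 5 to 20 kb, CpG-rich internal exon tiles had a median of 87.7%, and CpG-rich last exon tiles one of 25.4%. Single exons were an exception close to the start, since the 44 tiles with 2 to 5 CpGs at 250 to 500 bp had a median of 86.4%.

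**Figure D3:**
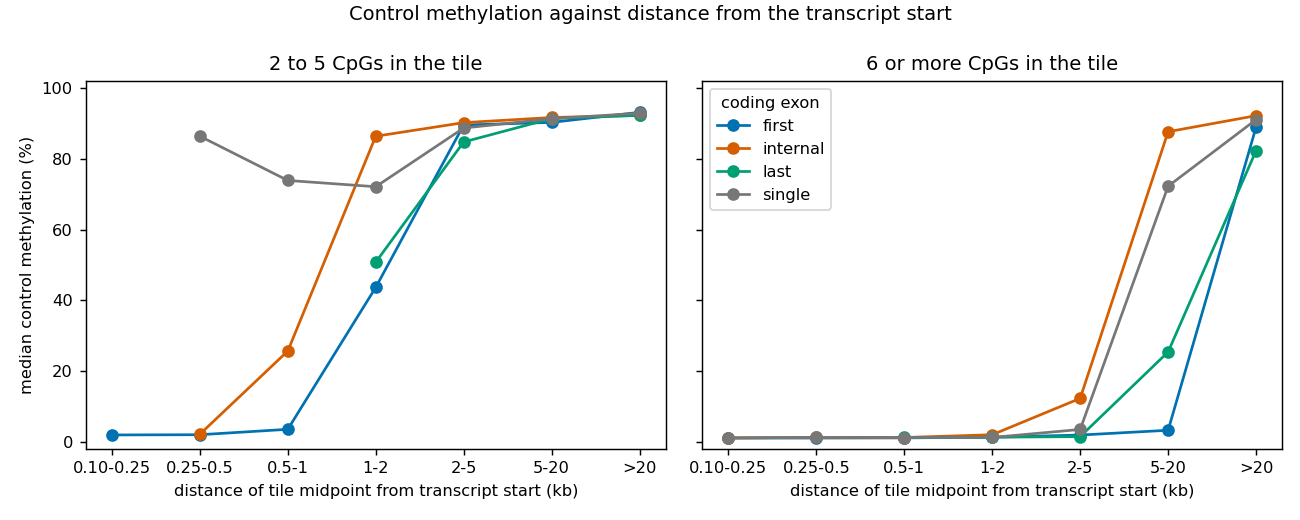
The median control methylation of coding exon tiles (y axis, percent) is plotted against the distance of the tile midpoint from the start of the transcript (x axis, kb, in bins), for tiles with 2 to 5 CpGs (left) and 6 or more (right), where a bin held at least 20 tiles. CpG-poor tiles rise above 80% within 5 kb in each class, and CpG-rich tiles of first and last exons stay under 5% up to 5 kb.

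Along the coding sequence of transcripts with at least 3 coding exons, the median went from 1.15% in the first 10% of the coding bases to 1.98% in the next 10%, 68.0% between 20 and 30%, 86.9% between 30 and 40%, and lay between 88.6% and 91.3% after that. By exon number, in transcripts with at least 5 coding exons, the median was 1.12% in exon 1, 70.6% in exon 2, 89.3% in exon 3, 90.6% in exon 4 and 88.3% in the last exon. In the last exons, 21.98% of tiles were under 10%, against 15.4% in exon 4.

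Neighbouring tiles of a coding exon had nearly the same level. Over 5815 pairs of adjacent tiles in 1 exon, the median difference in control level was 0.703 points and 93.2% of pairs differed by under 10 points. Only 1 pair differed by over 50 points. Of the 3608 coding exons with at least 2 tiles, 51 held tiles that differed by over 50 points, and these tiles were 200 to 2700 bp apart. In 32 of the 51 exons the more methylated tile had fewer CpGs, and in 15 it had more. The widest ranges, picked after their values had been seen, were in the long first exons of Celsr1 (2.04 to 96.5%) and Celsr3 (1.24 to 94.0%), which encode atypical cadherins of planar cell polarity, and in the single coding exon of Galnt4 (1.46 to 95.8%), an enzyme that starts O-linked glycosylation.

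Of the 298 transcripts with tiles in both the first and the last coding exon, 104 (34.9%) were under 10% in the first and at 80% or more in the last. Both ends were under 10% in 81 transcripts and at 80% or more in 35. The opposite order, high in the first and low in the last exon, was found in 5 transcripts, those of Lrfn1, Dlgap3, Nkx6-3, Slc8a2 and Zc3h12d. In Dlgap3, a postsynaptic scaffold gene, the first exon was at 94.6% and the last at 0.707%. In Lrfn1, a synaptic adhesion gene, these were 95.2% and 4.60%. These 5 genes were named after their values had been seen.

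The largest first-to-last differences within 1 transcript were in Tmem41a, Dsp, Mast4 and Arid1b. In Tmem41a, which encodes a transmembrane protein, the first exon tile with 12 CpGs ranged from 0.596 to 1.74% over the 6 controls, and the last exon tile with 4 CpGs from 97.8 to 100%. In Dsp, which encodes the desmosomal protein desmoplakin, the first exon tile with 16 CpGs ranged from 0 to 1.16% and the last exon tile from 94.2 to 98.3%. The printed last exon tile of Dsp holds 9 CpGs, a number at which the median of last exon tiles was 5.90%. Mast4, a kinase gene, and Arid1b, a subunit gene of the BAF chromatin remodelling complex, had first exon tiles at 0.492% ± 0.310 and 1.22% ± 0.675 and last exon tiles at 95.9% ± 0.845 and 95.8% ± 0.984 (SD, n = 6). No control embryo of either exon overlapped with one of the other in these 4 genes, which were picked for that difference.

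CpG-dense coding sequence was sometimes methylated. Of the 5748 tiles with 9 or more CpGs, 299 (5.20%) were at 80% or more, in 249 genes, and 160 of these were in internal exons, 93 in last, 24 in first and 22 in single exons. Among the most CpG-dense, and named after their values had been seen, were tiles in Speg, Hsf5, Shroom3, Klf16 and Fam50b, with 17, 17, 16, 14 and 14 CpGs. At 80% or more were 6 tiles with 14 CpGs and 1 with 15, and not all of these are named here. The internal exon tile of Speg, a kinase gene of striated muscle, had 17 CpGs and ranged from 94.0 to 96.4% over the 5 controls measured. The Hsf5 tile, in the first exon of a heat shock factor gene and 286 bp from its start, had 17 CpGs and ranged from 63.5 to 94.0%. The reverse, a level under 10% with 2 to 3 CpGs, was found in 137 tiles of 129 genes, of which 56 were in first and 41 in internal exons. With 4 CpGs, the printed tile of Jag1, the gene of a Notch ligand, ranged from 0 to 2.10% over the 6 controls. It lay in coding exon 2, 870 bp from the start of the transcript.

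Coding tiles were compared with intron tiles next to them. In 1018 pairs of a coding and an intron tile of the same gene with midpoints 100 to 500 bp apart, both measured in all samples, 94.1% differed by under 10 points in controls. Both tiles were under 10% in 773 pairs and both at 80% or more in 144, and no pair had one tile under 10% and the other at 80% or more. Those 773 pairs could not differ by 10 points, so the share of 94.1% rests largely on unmethylated pairs. The coding tiles averaged 18.3% ± 0.404 and the intron tiles 18.6% ± 0.415 (SD, n = 6), a difference of -0.26 points that had the same sign in all 6 controls (exact sign-flip permutation test, two-sided, p = 0.03125). All embryos were read at the same pairs, so the test is of the stability of this difference over embryos, not over pairs. This difference was no longer past the threshold with other minimum numbers of reads, with tiles wholly inside the coding sequence or with tiles not measured in every sample, where it lay between -0.0827 and -0.0294 points.

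The codon position of a CpG was also read from the annotation. Within tiles at 20 to 95% in controls, CpGs at codon positions 1 and 2, as in the arginine codons that start with CG, were at 80.3% and those bridging position 3 and the next codon at 78.1% (672 tiles with both). The difference was 2.25 points ± 0.316 (SD, n = 6), from 1.86 to 2.61 over the controls. Over all 2463 coding tiles with both, it was 0.740 points ± 0.0790. Without CpGs of CCGG sites, it was 2.09 ± 0.302 over 491 tiles. The other contrasts in tiles at 20 to 95% were smaller. CpGs at positions 1 and 2 were above those at positions 2 and 3 by 0.957 points ± 0.220 (487 tiles), or 1.81 ± 0.261 without CpGs of CCGG sites (337 tiles). CpGs at positions 2 and 3 were above the bridging ones by 0.917 points ± 0.158 (535 tiles). Over all coding tiles, CpGs at codon positions 1 and 2 were more often highly methylated, with 40.2% of them at 80% or more, against 23.6% of CpGs at positions 2 and 3 and 27.3% of those bridging 2 codons. These shares pool exon ranks, and 7574 of 24037, 10245 of 23704 and 13027 of 32042 of these CpGs lay in first exons. In internal exons alone, the shares were 67.4, 56.0 and 58.9%.

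Gene families differed in how much of their coding sequence was methylated. Over all coding tiles, 45.1% were under 10% and 43.7% at 80% or more. In 159 genes of developmental transcription factors such as the Hox, Fox and Nkx families, 565 of 625 tiles (90.4%) were under 10% and 37 at 80% or more. This was not limited to first exons, since the medians of internal and last exon tiles of these genes were 2.08% and 1.47%. These tiles had a median of 10 CpGs against 6 in all coding tiles, but with 2 to 5 CpGs in internal or last exons the median was 8.73% over 70 tiles, against 91.6% over the 5497 such tiles in all. Lowest and highest tiles of this and the following gene groups were taken among the tiles measured in all 22 samples, here 306 of 625. The lowest was in the last exon of Hoxb4 (0.424% ± 0.679) and the highest in coding exon 2 of Foxk1 (95.8% ± 0.985, SD, n = 6).

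Zinc finger genes of the Zfp series were mostly methylated in their coding exons, with 210 of 347 tiles in 110 genes at 80% or more and 100 under 10%. Their first exon tiles had a median of 1.28%, and the last exon tiles, where the finger repeats are usually encoded, one of 88.5%. Among the 120 tiles in all samples, the extremes were the first exon of Zfp318 (0.370% ± 0.334) and the last exon of Zfp629 (97.9% ± 1.35). Protocadherins, cell adhesion genes whose clustered members each carry a large variable exon, were often at intermediate levels. Between 10 and 80% were 49 of their 95 tiles (51.6%), against 11.3% of all coding tiles, and the first exon tiles had a median of 20.7%. Among the 21 protocadherin tiles in all samples, the lowest was in Pcdh7 (1.44% ± 1.38) and the highest in Pcdhga7 (93.1% ± 1.87).

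Most tiles of collagen, basement membrane and motor genes were in internal exons (63 of 80, 38 of 51 and 151 of 189), a class in which 70.6% of all coding tiles were at 80% or more. Of 80 collagen tiles, 61 were at 80% or more, and among the 30 in all samples Col23a1 was lowest in its first exon (0.783% ± 0.510) and Col6a2 highest (96.9% ± 0.659). Of 51 tiles in basement membrane genes, 36 were at 80% or more, and the 15 in all samples lay between Lama5 (0.696% ± 0.517) and Nid2 (95.8% ± 2.86). Cytoskeletal motor genes had 129 of 189 tiles at 80% or more, and the 49 in all samples went from Kif11 (0.767% ± 0.234) to Kif3b (96.9% ± 2.18), both in a first coding exon, with the Kif3b tile 25434 bp from the start of the transcript. Voltage-gated channel genes were divided much as all coding tiles were. Under 10% were 80 of their 187 tiles (42.8%, against 45.1% of all coding tiles) and at 80% or more 78 (41.7%, against 43.7%). The 72 channel tiles in all samples went from Cacna1g (0.540% ± 0.726) to Kcnh1 (96.1% ± 0.572).

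Semaphorins and plexins, a ligand and receptor family of axon guidance, had 26 of 57 tiles at 80% or more (45.6%, against 43.7% of all coding tiles). Their 15 last exon tiles had a median of 11.2%. Internal or last exon tiles of this group had a median of 90.9% with 2 to 5 CpGs (25 tiles) and 13.2% with 6 or more (20 tiles). In all coding tiles, these medians were 91.6 and 59.3%. The 14 tiles in all samples went from Sema4b (0.886% ± 0.732) to Sema6b (92.1% ± 1.85). In the Notch pathway, 19 of 42 tiles were under 10% (45.2%) and 18 at 80% or more (42.9%). These shares were close to the 45.1 and 43.7% of all coding tiles. Among the 15 in all samples, Jag1 was lowest (0.825% ± 0.807) and the last exon of Notch1, the gene of a receptor, highest (94.0% ± 1.71). Coding tiles of these 9 groups had 0 to 3 called changes between conditions each, as given below.

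EtOH-exposed and control embryos were compared to ask whether exposure before implantation went with other methylation levels in the forebrain. Before these comparisons, the libraries were checked. The level at 18544 tiles whose median over samples was under 1%, a level that is affected by incomplete conversion, lay between 0.67 and 1.52% in the 6 controls and 7 EtOH-exposed embryos, between 0.257 and 0.311% in EtOH-exposed 1, 2, 3, 9, 12 and 14, and between 2.40 and 2.53% in EtOH-exposed 4, 5 and 6. The slope of log2 coverage on methylation, which compares fully methylated with unmethylated tiles relative to controls, was -0.573 to 0.405 in controls and -2.76 to 0.288 in EtOH-exposed samples. The 7 EtOH-exposed embryos grouped with the controls were at 0.828 to 1.38% at the unmethylated tiles. Controls 3 to 6 were at 0.670 to 0.677% and controls 1 and 2 at 1.52 and 1.51%, so these libraries match as a group, not 1 by 1. EtOH-exposed 8 and 11 in this group had slopes of -0.989 and -0.614, below all controls. The median number of reads per coding tile was 181 to 656 in controls and 286 to 756 in EtOH-exposed samples (exact permutation test, p = 0.0235). At 181 reads, a level of 49.7% has a 95% Wilson interval of 42.5 to 56.9%, which covers counting error only.

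Averaged over the 6032 coding tiles measured in all samples, control embryos ranged from 30.4 to 31.3% with a median of 30.8%, and EtOH-exposed embryos from 28.4 to 31.1% with a median of 30.1%. Of the 16 EtOH-exposed embryos, 10 were below the lowest control and none was above the highest, while 6 lay within the range of controls. The means were 30.8% ± 0.354 (SD, n = 6) and 30.0% ± 0.770 (n = 16), a difference of -0.728 points (exact permutation test over 74613 splits, two-sided, p = 0.0376). Within the 13 libraries of matching level at unmethylated tiles, the difference was -0.110 points (p = 0.569), and with the coverage of methylated tiles as a covariate it was -0.308 points (p = 0.278). It was also not past the threshold without CpGs of CCGG sites (-0.474, p = 0.0888), with at least 20 reads (-0.525, p = 0.0690), or without control 1, 2, 4 or 5 or EtOH-exposed 5 or 9 (p between 0.0508 and 0.0950). When the EtOH-exposed side held EtOH-exposed 1 to 6 alone, none of them among the matching libraries, it was -1.16 points (exact permutation test, p = 0.00216).

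By exon rank, first exon tiles were at 7.98% ± 0.387 in controls and 7.79% ± 0.666 in EtOH-exposed embryos, a difference of -0.187 points (exact permutation test, adjusted p = 0.527 over the 4 classes). Internal exon tiles were at 59.5% ± 0.448 and 58.1% ± 1.53, a difference of -1.34 points (p = 0.0483, adjusted p = 0.0967, permutation test). Last exon tiles differed by -1.06 points (p = 0.0325, adjusted p = 0.0967) and single exon tiles by -0.514 points (p = 0.119, adjusted p = 0.159) in the same permutation test. In internal exons 10 of 16 EtOH-exposed embryos were below the lowest control, and in last exons also 10. No class passed the threshold after adjustment. The test of the difference between classes did not pass it either, with internal minus first exons at -1.15 points (adjusted p = 0.193), last minus first at -0.872 (adjusted p = 0.193) and last minus internal at 0.279 (adjusted p = 0.323, permutation tests adjusted over 3 pairs). Within the 13 matching libraries, internal exon tiles differed by -0.291 points and last exon tiles by -0.259.

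**Figure D4:**
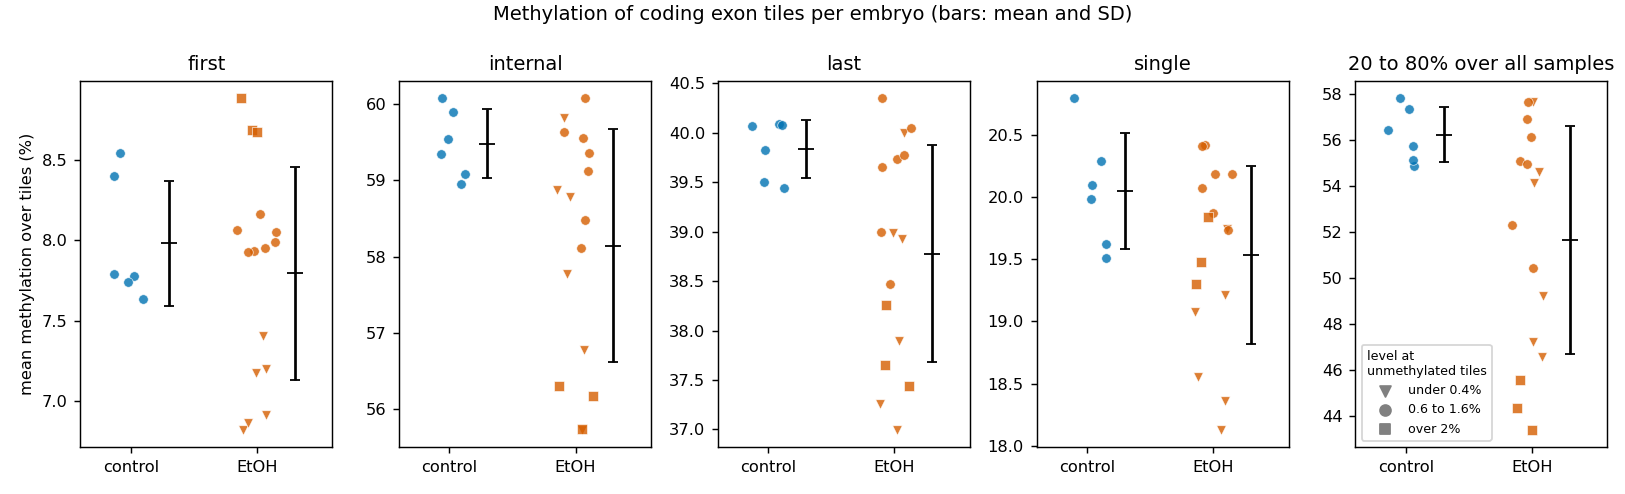
Each point is 1 embryo, with the mean methylation (y axis, percent, a separate range per panel) over the coding exon tiles of a class measured in all 22 samples, and bars give the mean and SD of the 6 control and 16 EtOH-exposed embryos. Marker shape gives the library's level at unmethylated tiles, and 8 of the 10 EtOH-exposed embryos below all controls in the average of all coding tiles are triangles or squares, shapes that hold no control.

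By CpG number, the difference was -2.33 points in tiles with 2 to 3 CpGs, -1.44 with 4 to 5, -0.793 with 6 to 8 and -0.153 with 9 or more. Control levels in these classes were 76.5, 67.3, 36.8 and 5.87%, so the classes also differed in how far a level could fall. Whether the change differed relative to the control level was not tested. The adjusted p was 0.0711 in the first 3 classes and 0.627 in the last (exact permutation tests, adjusted over 4 classes). The 480 tiles with 2 to 3 CpGs were at 76.5% ± 0.564 in controls and 74.2% ± 2.54 in EtOH-exposed embryos, and 12 of 16 EtOH-exposed embryos were below the lowest control. These differences were not past the threshold with all samples and passed it without EtOH-exposed 10 in the classes of 2 to 3, 4 to 5 and 6 to 8 CpGs (adjusted p = 0.0417 in each, permutation test). Within the 13 matching libraries they were -0.858, -0.286 and -0.0793 points in these 3 classes, and with the coverage covariate -0.368, -0.143 and -0.245 points.

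The 563 tiles with a mean of 20 to 80% over all samples had the widest spread. Controls ranged from 54.9 to 57.8% with a median of 56.1%, and EtOH-exposed embryos from 43.4 to 57.7% with a median of 53.2%. The difference was -4.60 points (p = 0.0382, adjusted p = 0.0763, exact permutation test), and it was -1.45 points within the 13 matching libraries and -0.760 points with the coverage covariate. The 1580 tiles over 80% differed by -1.07 points (adjusted p = 0.113, permutation test), and by -0.0405 points within the matching libraries. Among tiles with 2 to 5 CpGs and over 20%, coding tiles differed between conditions by -1.98 points, intron tiles by -2.51 and intergenic tiles by -2.49. The test of coding minus intron tiles gave 0.523 points and that of coding minus intergenic tiles 0.511 (adjusted p = 0.134 in both, permutation tests), so the coding tiles were not shown to change by another amount. Within the matching libraries, these differences were 0.129 and 0.194 points. In pairs of nearby coding and intron tiles, the change differed by -0.00793 points (p = 0.846, exact permutation test). With at least 20 reads it was -0.155 points (p = 0.00417, permutation test), and the sign turned with at least 5 reads (0.0769), in the replicate block (0.0258) and without control 4 (0.00715) or EtOH-exposed 10 (0.00208).

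EtOH-exposed embryos differed more among themselves than controls, though not past the threshold. The mean distance from the group's median was 0.265 points in controls and 0.614 points in EtOH-exposed embryos (difference 0.350, p = 0.0760, permutation test). The distances were held fixed over the splits, with medians not taken anew in each, so the p-values of this test are approximate. This difference passed the threshold with all members in an additive fit of tile and embryo (0.724 points, p = 0.0102) and with at least 5 reads (0.582 points, p = 0.0198, permutation tests). Within the 13 matching libraries, this difference was -0.0253 points. Tile by tile, the SD was larger among EtOH-exposed embryos in 2878 of the 3756 tiles under 10%, 382 of the 563 tiles at 20 to 80% and 1053 of the 1580 tiles over 80%. At 10 to 20% it was larger in 56 of 133 tiles, with a median SD of 2.99 points in EtOH-exposed and 3.42 points in control embryos. Embryo means over the tiles under 10% had an SD of 0.425 points in controls and 0.814 points in EtOH-exposed embryos. The level at unmethylated tiles had SDs of 0.434 and 0.804 points, and all libraries outside its control range were EtOH-exposed. The counts of tiles were not made within the matching libraries.

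Single embryos were set against 5 controls at a time. The share of coding tiles more than 10 points below all of them was 0 to 0.812% in control embryos and 0 to 5.28% in EtOH-exposed embryos. The highest shares were in EtOH-exposed 5 (5.28%), 6 (4.72%) and 4 (4.09%), followed by EtOH-exposed 14 (3.15%) and 2 (1.52%). Shares above the controls by more than 10 points were at most 0.0939% in EtOH-exposed embryos and 0.580% in controls. In EtOH-exposed 4, 5 and 6, which shared a high level at unmethylated tiles, 97 of the 6032 coding tiles (1.61%, in 85 genes) were more than 10 points below the lowest control in all 3 embryos, against 1.76% of all analysed tiles measured in every sample. These tiles averaged 68.9 to 72.1% in controls, 42.9 to 45.9% in these 3 embryos and 51.5 to 72.003% in the other 13 EtOH-exposed embryos. The values of the controls and of these 3 embryos chose the tiles, so their levels are no test, and the other 13 had no part in the choice. By exon rank, they were 58 of 1899 internal (3.05%), 23 of 955 last (2.41%), 8 of 758 single (1.06%) and 8 of 2420 first exon tiles (0.331%). A tile under 10% in controls could not be among them. Under 10% were 16.02% of internal, 34.7% of last, 61.4% of single and 84.0% of first exon tiles among all coding tiles. Of those 16767 tiles, 7561 were under 10% in controls. Unmethylated tiles were more common among the 6032 measured in all samples, where 3756 averaged under 10% over all embryos. Shares among the tiles that could fall so far were not counted. The coverage of the 97 tiles was 0.224 of the library's median in the 3 embryos, against 0.657 in controls, and the part of coverage in their level was not tested.

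At single tiles, differentially methylated regions (DMRs) were called with the study's thresholds, a q under 0.01 and a difference of the read-weighted levels of at least 10 percentage points. Of the 16767 coding exon tiles, 160 were called, which is 0.954%, against 1.14% of all analysed tiles. Decreased were 150 (0.895%, against 1.08% of all tiles) and increased 10 (0.0596%, against 0.0516% of all tiles). The called tiles lay in 132 exons of 130 genes, 76 of them in internal, 38 in last, 31 in first and 15 in single exons. As a share of the class, these were 1.08% of internal, 1.39% of last, 0.592% of first and 0.847% of single exon tiles. By CpG number, 1.51% of tiles with 2 to 3 CpGs and 0.331% of those with 9 or more were called. In controls, 5.32% of the former and 89.4% of the latter were under 10%, where a level has no room to fall by 10 points. The same holds for the 84.0% of first exon tiles that were under 10%.

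The calls were mostly at intermediate levels. At 20 to 80% in controls were 138 of the 160 called tiles, and of the 1573 coding tiles in that range 8.77% were called, against 10.9% of all analysed tiles in it. In first exons this share was 11.2% and in internal exons 7.55%. The median difference of the decreased tiles was -12.6 points, and 9 tiles differed by 20 points or more. The logistic test takes all reads of a group as independent. With the spread between embryos estimated per tile (an F test with overdispersion), none was called, 826 coding tiles (4.93%) had an unadjusted p under 0.05, against 5.77% of all tiles, and the smallest q of a coding tile was 0.128. With limma on log2 ratios none was called either, and 737 coding tiles (4.396%) had an unadjusted p under 0.05, against 4.45% of all tiles. The decreased tiles had a median SD of 6.90 points among controls and 13.5 points among EtOH-exposed embryos, and the increased tiles one of 14.7 points among controls and 7.69 points among EtOH-exposed embryos.

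Among the gene groups above, called tiles were 3 of 347 in Zfp genes, and 1 each in developmental transcription factors (of 625), voltage-gated channels (of 187) and cytoskeletal motors (of 189), all decreased. In collagens 1 of 80 was called and increased. These were 0.865, 0.160, 0.535, 0.529 and 1.25% of the tiles of each group, beside 0.954% of coding tiles and 1.14% of all tiles. None was called of the 95 protocadherin, 57 semaphorin and plexin, 51 basement membrane and 42 Notch pathway tiles. With the overdispersion F test, unadjusted p was under 0.05 in 13 of 189 cytoskeletal motor tiles (6.88%), 6 of 95 protocadherin (6.32%), 5 of 80 collagen (6.25%), 3 of 57 semaphorin and plexin (5.26%), 8 of 187 voltage-gated channel (4.28%) and 2 of 51 basement membrane tiles (3.92%). It was under 0.05 in 11 of 347 Zfp (3.17%), 18 of 625 transcription factor (2.88%) and 1 of 42 Notch pathway tiles (2.38%), beside 4.93% of all coding tiles and 5.77% of all analysed tiles. Neither the F test nor limma called a tile in these groups.

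The 6 largest called decreases were in Plekhh2, Cldn12, Skap1, Zbtb22, Sik3 and Rnf165. The tile of Plekhh2, which encodes a protein with pleckstrin homology and FERM domains, was at 34.6, 71.6, 93.3, 82.9 and 77.6% in the 5 controls measured and from 15.6 to 94.4% with a median of 56.95% in 8 EtOH-exposed embryos. The groups overlapped, since 1 control was low and 3 EtOH-exposed embryos were above 80%, and only EtOH-exposed 4, 5 and 6 were below the lowest control. The read-weighted difference was -32.7 points and the difference of embryo means -17.0 points (logistic test, q = 9.56e-42, and overdispersion F test, q = 0.862). Between 5 controls and 3 EtOH-exposed embryos of matching libraries, it was -2.56 points, and without control 1 the difference of embryo means was -26.4 points.

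Cldn12 encodes a claudin, a protein of tight junctions, and its tile in the only coding exon was at 70, 55.1, 66.7, 68.1 and 43.9% in controls. In 8 EtOH-exposed embryos it ranged from 7.68 to 69.0% with a median of 35.8%, and 5 of the 8 were below the lowest control. EtOH-exposed 6, 5 and 4 were the lowest, at 7.68, 18.6 and 25%. The weighted difference was -32.3 points and that of embryo means -20.7 points (overdispersion F test, q = 0.843). It was -16.3 points between 5 controls and 3 EtOH-exposed embryos of matching libraries.

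The tile of Skap1, an adaptor gene of T cell receptor signalling, lay in coding exon 11 of 12 with 76 of its bases in the exon. It was at 53.5, 54.5, 56.9, 69.6 and 45.2% in controls and from 14.3 to 60.4% with a median of 33.0% in all 16 EtOH-exposed embryos, of which 12 were below the lowest control. EtOH-exposed 6, 4 and 5 were the lowest, at 14.3, 14.96 and 19.2%. The difference was -21.4 points over embryo means and -18.7 points in matching libraries (overdispersion F test, unadjusted p = 0.00582, q = 0.843).

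Sik3 encodes a salt-inducible kinase, and its tile was at 96.7, 73.6, 71.4, 68.2 and 81.9% in controls. The 16 EtOH-exposed embryos ranged from 2.02 to 81.8% with a median of 51.7%, and 12 of them were below the lowest control. EtOH-exposed 8 at 2.02% and EtOH-exposed 3 at 11.3% were the lowest, while EtOH-exposed 4, 5 and 6 were at 52.7, 63.7 and 56.0%. The difference of embryo means was -31.4 points and the weighted difference -21.8 points (overdispersion F test, q = 0.847). In matching libraries it was -29.9 points.

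Zbtb22, a zinc finger gene with a BTB domain, had a weighted difference of -23.1 points, with controls from 22.5 to 56.3% and 11 EtOH-exposed embryos from 10.9 to 45.5%. The difference of embryo means was -21.2 points, and -23.5 points in matching libraries. Its tile had a median of 74 reads per sample, the fewest among these 12. Rnf165, a ubiquitin ligase gene, had controls from 75.3 to 83.5% and 9 EtOH-exposed embryos from 21.3 to 78.6%, with a weighted difference of -21.5 points and one of -11.03 points over embryo means in matching libraries. The median of the 9 EtOH-exposed embryos was 69.6%, and 8 of them were below the lowest control. EtOH-exposed 6, 5 and 4 were the lowest, at 21.3, 25.9 and 33.8%, and the others were between 56.4 and 78.6%.

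The 6 largest called increases were smaller than the decreases, and in all 6 the groups overlapped. The tile in the last exon of Cacnb1, the gene of a calcium channel beta subunit, was at 19.2, 26.9, 46.4, 62.0 and 65.9% in 5 controls. The 16 EtOH-exposed embryos ranged from 39.8 to 60.9% with a median of 46.2%, all inside the range of controls. The weighted difference was 13.6 points and the difference of embryo means 4.81 points, which became -1.42 points without control 1, 0.519 without control 2, 9.28 without control 4 and 10.3 without control 5. In Padi4, a peptidylarginine deiminase gene, the weighted difference was 12.9 points and the difference of embryo means -0.0631 points, between -3.40 and 2.02 points with 1 embryo left out. In Gli1, a transcription factor gene of Hedgehog signalling, these were 11.4 and 3.08 points, and in Col7a1, the gene of the collagen of anchoring fibrils, 12.8 and 7.50 points. Over embryo means, Gli1 was at -2.58 points without control 2, 0.433 without control 1, 1.84 without EtOH-exposed 15, 6.09 without control 4 and 6.93 without control 5. Col7a1 was at 1.69 points without control 2 and 4.44 points without control 1. In matching libraries, the differences of embryo means were 10.3 points in Cacnb1, -2.03 in Padi4, 12.48 in Col7a1 and 11.04 in Gli1.

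Sirt4 and Shank1 had the clearest separation among the increases. Sirt4 encodes a mitochondrial sirtuin, and its first exon tile was at 17.97, 20.1, 31.8, 30 and 5% in controls and from 22.6 to 38.9% with a median of 32.3% in 14 EtOH-exposed embryos. Of these, 8 were above the highest control, and the difference of embryo means was 10.3 points (overdispersion F test, q = 0.128, the smallest of the coding tiles). Without control 6, it was 6.28 points, and in matching libraries 13.1 points. Shank1 encodes a postsynaptic scaffold, and its tile in coding exon 23 of 24 was at 12.97, 14.8, 30, 26.5 and 20% in controls. The 16 EtOH-exposed embryos ranged from 19.7 to 43.8% with a median of 28.03%, and 7 were above the highest control (difference of embryo means 8.72 points, overdispersion F test, q = 0.502). In matching libraries, the difference was 14.9 points.

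**Figure D5:**
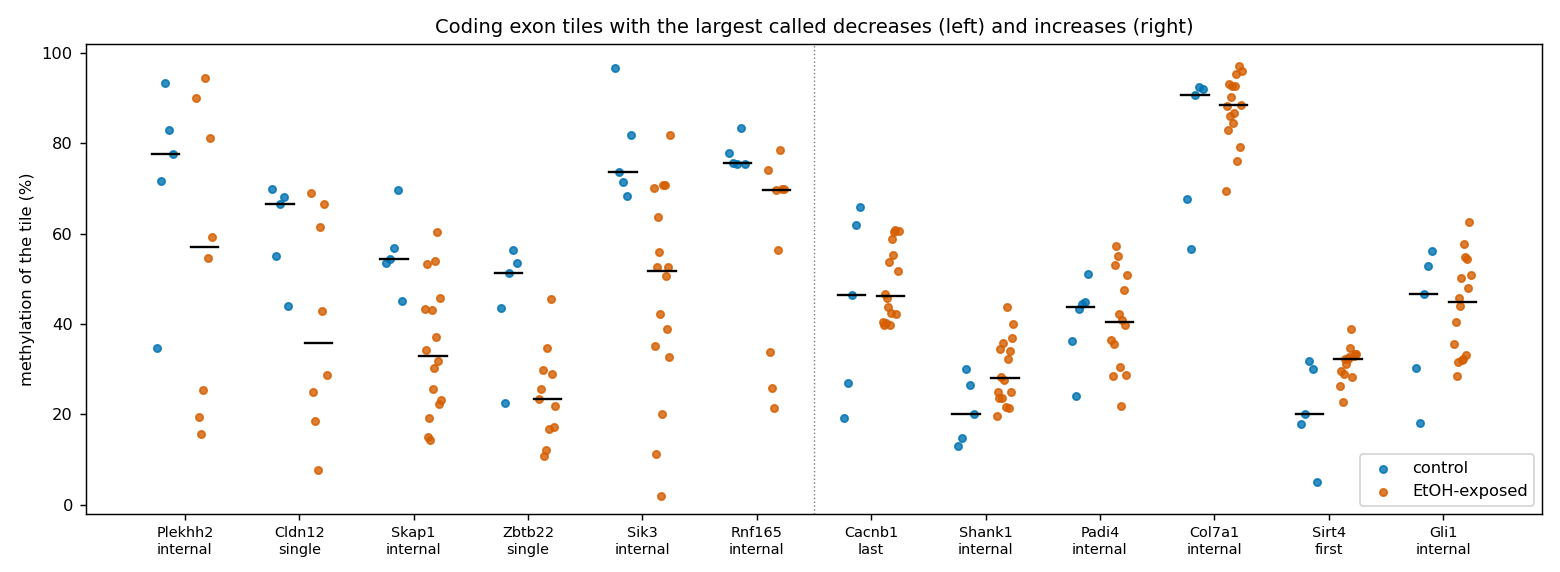
The methylation of each tile (y axis, percent) is given for every embryo with a value, for the 6 largest called decreases (left of the dotted line) and increases (right), with the gene and exon class on the x axis and the group median as a black bar. Control and EtOH-exposed embryos overlap in all 12 tiles, and in Cacnb1 every EtOH-exposed embryo is inside the range of controls.

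Among the tiles measured in all 22 samples, the 5 with the smallest unadjusted p of the overdispersion F test were in Tsc1, Kifc3, Irgq, Ajm1 and Zbtb7a, each lower in EtOH-exposed embryos, and each with a q of 0.830. The tile of Kifc3, a gene of a minus-end-directed kinesin, at chr8:95110101-95110200 in coding exon 7 of 21, ranged from 43.2 to 62.1% with a median of 48.7% in controls and from 28.3 to 46.1% with a median of 40.2% in EtOH-exposed embryos. Of the 16, 12 were below the lowest control, and the difference of embryo means was -11.2 points, or -10.2 points in matching libraries (unadjusted p = 0.00115 by the F test). In the last exon of Tsc1, the gene of hamartin, an inhibitor of mTOR signalling, controls ranged from 88.9 to 93.7% and EtOH-exposed embryos from 84.6 to 91.9%, with 10 of 16 below the lowest control. The difference of embryo means was -3.67 points and -3.54 points in matching libraries (unadjusted p = 8.05e-04 by the F test).

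In Irgq, Ajm1 and Zbtb7a, the differences of embryo means were -8.32, -2.34 and -2.18 points. The tile of Zbtb7a, the gene of a zinc finger repressor, was highly methylated although it lay in a first coding exon and had 10 CpGs, with controls from 93.5 to 97.3% and EtOH-exposed embryos from 89.7 to 95.2%. It was 8679 bp from the start of the transcript. In Irgq, control 6 was at 47.1% and the other controls between 11.4 and 19.01%, while the EtOH-exposed embryos ranged from 7.09 to 15%. Without control 6, the difference in Irgq was -2.98 points. In Ajm1, which encodes an apical junction protein, 3 of 16 EtOH-exposed embryos were below the lowest control, and the difference was -1.56 points without control 4.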

How the data were processed

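Forebrain DNA of 6 control and 16 EtOH-exposed embryos was measured by rRRBS. Per the labels, the submitters' processing notes name Trim Galore 0.3.3, BSMAP 2.90 and mm10. The authors deposited, for each CpG cytosine, the count of reads covering it, not normalized, and the percent of them that were methylated or unmethylated. Coverage times percent, rounded, gave the methylated reads, and cytosines of both strands were summed where each had at least 10 reads. Tiles of 100 bp needed 2 CpGs per sample and 5 samples per condition. Features came from the RefSeq annotation of GRCm38, in the order promoter, coding exon, other exon, intron, intergenic, and exon rank from the curated transcript with the longest coding sequence where there was one (97.0% of tiles). Of 36208 curated coding transcripts, 99.8% began with ATG on the reference. All 100 bases were coding in 11310 tiles, and 37 tiles lay at exons of 2 genes.

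Control samples held 68126469 to 132488556 calls and EtOH-exposed samples 89179413 to 216223892. Intervals cover counting error only, since PCR copies were not told apart. Levels per embryo were unweighted means over tiles measured in all 22 samples, compared by exact permutation tests with Benjamini-Hochberg adjustment within each family. DMRs came from logistic regression of each tile on condition (likelihood ratio, q over all tiles). Overdispersion F tests, limma 3.58.1 (R 4.3.3, 0.5 added to counts), other read and CpG minimums, CpGs of CCGG sites left out, a replicate block and samples left out were the alternatives. Chosen after seeing the data were curated transcripts alone and the 12 samples of the block without it. Matching libraries were those linked by steps of under 1.3-fold in the level at unmethylated tiles (median over samples under 1%). The tests were checked on simulated data. Python 3.11.15, numpy 2.4.6, pandas 2.3.3, scipy 1.17.1 and matplotlib 3.10.9 were used.

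The members, gene groups and tests were chosen with earlier results of these data known. Named were the 6 largest called decreases and increases, the 5 smallest F test p of tiles in all samples, the lowest and highest control level per gene group and the 4 largest first-to-last exon differences, also of tiles in all samples, 1 tile per gene. Sequences were meant for the largest changes, and those of Tmem41a, Dsp, Speg and Jag1 were added for the level results. Genes on chromosome 18 have none. Replicate numbers did not pair the embryos.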

Additional observations from a re-analysis of the deposited data

Results flagged for a closer look

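In 66 groups of 5 or 6 control embryos, 3 held an embryo far from the others by Dixon's criterion, about as many as the 1 in 20 that chance flags. In the Kifc3 tile of coding exon 7, control 6 was at 62.1% and the other 5 controls were between 43.2 and 50.2%. Of the 16 EtOH-exposed embryos, 12 were below 43.2%. In the Irgq tile of coding exon 2, control 6 was at 47.1% and the others were between 11.4 and 19.01%. In the Hoxb4 tile of coding exon 2, control 1 was at 1.77% and the others were between 0 and 0.422%. Control 6 had the fewest reads per coding tile of all samples, with a median of 181, and the part of its depth in these values was not tested.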

How the results depend on the processing

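Of 660 values under other settings, 577 (87.4%) kept their direction and side of the threshold, and the cause of the others was not tested unless given here. Of the 160 called coding tiles, the overdispersion F test and limma left 0 (826 and 737 at an unadjusted p under 0.05). Called were 9 with a difference of 20 points (0.0537% of coding tiles tested, 0.0883% of all tiles tested), 36 of 6032 measured in all samples (0.597%, 0.585%), 261 with unweighted means (1.56%, 1.71%), 251 of 20625 at 5 reads (1.22%, 1.63%), 73 of 11678 at 20 reads (0.6251%, 0.726%) and 67 of 13544 without CpGs of CCGG sites (0.495%, 0.586%). Within matching libraries 139 of 16027 were called (0.867%, 0.924%). Leaving out 1 embryo gave 58 (0.770%, 0.636%, without control 4) to 226 (1.35%, 1.59%, without EtOH-exposed 12), with the low counts (61, 71, 58, 60 and 77 without control 1, 3, 4, 5 and 6) being 0.650 to 0.956% of the 7408 to 11845 tiles with the other 5 controls measured.

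The difference in level of coding tiles was no longer past the threshold at 20 reads (-0.525 points), without CpGs of CCGG sites (-0.474), in matching libraries (-0.110) or with the coverage covariate (-0.308), and lay between -0.805 and -0.618 with 1 embryo left out. In matching libraries, the signs turned for first exons (0.0317), single exons (0.0747), 9 or more CpGs (0.0650) and the distance from the group median (-0.0253). With the covariate they turned for internal minus first (0.227), last minus first (0.0799) and last minus internal exons (-0.147), highly methylated tiles (0.129) and coding minus intron tiles (-0.0662). The distance from the group median passed the threshold with the additive fit (0.724) and at 5 reads (0.582).

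The coding minus nearby intron difference in controls lost the threshold with the additive fit (-0.0294), at 5 reads (-0.0627), at 20 reads (-0.0445) and in fully coding tiles (-0.0827). With 1 control left out it was -0.276 to -0.245, and internal minus first exons 51.4 to 51.6, where 5 embryos cannot go below p = 0.0625 in the exact permutation test. Its change turned at 5 reads (0.0769) and in the replicate block (0.0258), passed the threshold at 20 reads (-0.155), and was -0.0242 to 0.00715 with 1 embryo left out. With 1 embryo left out, the differences were -2.52 to -2.05 for 2 to 3 CpGs, -1.58 to -1.26 for 4 to 5, -0.881 to -0.686 for 6 to 8 and -4.999 to -4.05 for intermediate tiles, past the threshold without EtOH-exposed 10, and for intermediate tiles also without EtOH-exposed 12.

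The replicate numbers do not pair the embryos, since the correlation of same-numbered deviations was -0.192 to 0.162. The replicate block used control and EtOH-exposed 1 to 6, and those EtOH-exposed embryos all lay outside the matching libraries. It gave -1.16 points in all coding tiles, -2.37 in internal, -1.75 in last and -0.839 in single exons, -4.01, -2.63 and -1.34 for 2 to 3, 4 to 5 and 6 to 8 CpGs, -8.02 in intermediate and -2.18 in highly methylated tiles, 1.10 for coding minus intron and 0.941 for coding minus intergenic tiles. These passed the threshold, and the same 12 samples without pairing gave the same differences. The block called 586 of 14009 coding tiles (4.18%, against 4.84% of all tiles tested) and those samples unpaired 379 (2.71%, against 3.07%).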
